A study of Mus musculus with 113 samples.

Results

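The 16 single cells described here were hand-picked from SFEB cultures of R1 mouse ES cells, in which aggregates of the cells float in medium without serum, 8 at 144 h (S4a) and 8 at 216 h (S4b) of neural differentiation. They were chosen by collection time alone, and they are 16 of the 64 single cells and of the 113 samples of the whole series. Both groups came from the same unmodified line. At day 6, which is 144 h, the aggregates were dissociated, moved from a serum replacement medium (GKSR) to a medium with N2 supplement, and replated on a coat of poly-D-lysine, laminin and fibronectin. The 216 h cells had passed through this step, so that time, medium, substrate and library preparation cannot be told apart here. The labels give the collection time of a cell but tie no cell to a culture of its own, so each time point was taken as 1 sample. Hence no test was made between them, and all differences below are descriptions of these 16 cells.

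Neural progenitors line the ventricles of the embryonic brain as a dividing epithelium and turn into radial glia as development goes on. Notch signalling keeps them as progenitors through the Hes and Hey repressors, while proneural factors such as Neurog2 raise the ligand Dll1 and drive cells out of the cycle towards neurons. Young neurons then express tubulins and other proteins of the growing axon, and later those of the synapse. In ES cell cultures this takes place after the pluripotency genes have been shut down.

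Levels are given, rounded, as log10(RPKM + 1), the deposited scale, on which 0 is an RPKM of 0 and 1, 2 and 3 stand for RPKM values of 9, 99 and 999. Where 3 levels follow each other for a gene, they are the lowest, the median and the highest of the 8 cells. A difference is the mean of the 216 h cells minus the mean of the 144 h cells, in log10 units. Differences of at least 0.5 in size were counted. Of 11449 genes in the cell table, 7748 were above an RPKM of 0.5 in at least 4 of the 16 cells and entered these counts.

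Cells of the same time point did not form a uniform set. S4b-16 correlated most with the mean of the 9 h cells (Pearson's r 0.67 across genes) and S4a-16 with that of the 38 h cells (r 0.71), while each of the other 14 cells was closest to its own time point. At 144 h, S4a-10 and S4a-14 correlated with each other at r 0.64 across the 7748 genes, but with the other 144 h cells only at 0.25 to 0.37. S4a-02, S4a-11 and S4a-17 correlated with each other at 0.62 to 0.64. At 216 h, S4b-01, S4b-02 and S4b-04 correlated at 0.54 to 0.63 among themselves and at 0.33 to 0.47 with the other 216 h cells. The labels name no plate, batch or day for the cells against which these groupings could be set. No 2 of the 64 cells held identical values.

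Detection also differed. The genes above 0 numbered 5648, 6145 and 10016 in the cells of 144 h and 6771, 7951.5 and 8957 in those of 216 h. The genes above an RPKM of 0.5 lay between 4914 and 5214 in all 16 cells, since the authors had brought the cells to 1 common distribution. The counts, list medians and named genes were therefore also computed without S4b-16, without both cells numbered 16, and without S4a-10 and S4a-14. No share of all genes is given for the repeat without S4a-10 and S4a-14, so its list counts have none beside them.

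The 3 genes taken as markers of these stages were found at both times. *Fabp7*, a fatty acid binding protein of radial glia, was at 0.00, 1.62 and 2.01 at 144 h and at 0.27, 2.42 and 2.98 at 216 h. Its mean was higher by 0.73 at 216 h (SD between cells 0.73 at 144 h and 1.01 at 216 h), and by 0.97 without S4b-16. The groups overlapped, but 5 of the 8 late cells were above every 144 h cell. *Tubb3*, the tubulin of young neurons, was at 0.00, 0.55 and 1.61 at 144 h and at 0.30, 1.37 and 3.44 at 216 h, a difference of 0.78 that was 0.94 without S4b-16 and 0.50 without S4b-04. S4b-04 at 3.44 and S4b-12 at 3.01 stood above all other cells. *Sox11*, a factor of young neurons and late progenitors, was at 0.25, 1.22 and 1.88 at 144 h and at 0.11, 1.55 and 2.35 at 216 h, with a difference of 0.20, or 0.38 without S4b-16 and 0.06 without S4b-04, both below the SD between cells of 0.72 at 144 h. Each of the 3 genes was thus above an RPKM of 0.5 in at least 7 of the 8 cells of each time. *Tubb3* was at 1 or above in 3 cells of 144 h and 5 of 216 h. S4b-16 was the late cell lowest in *Fabp7* and *Sox11*.

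**Figure D1:**
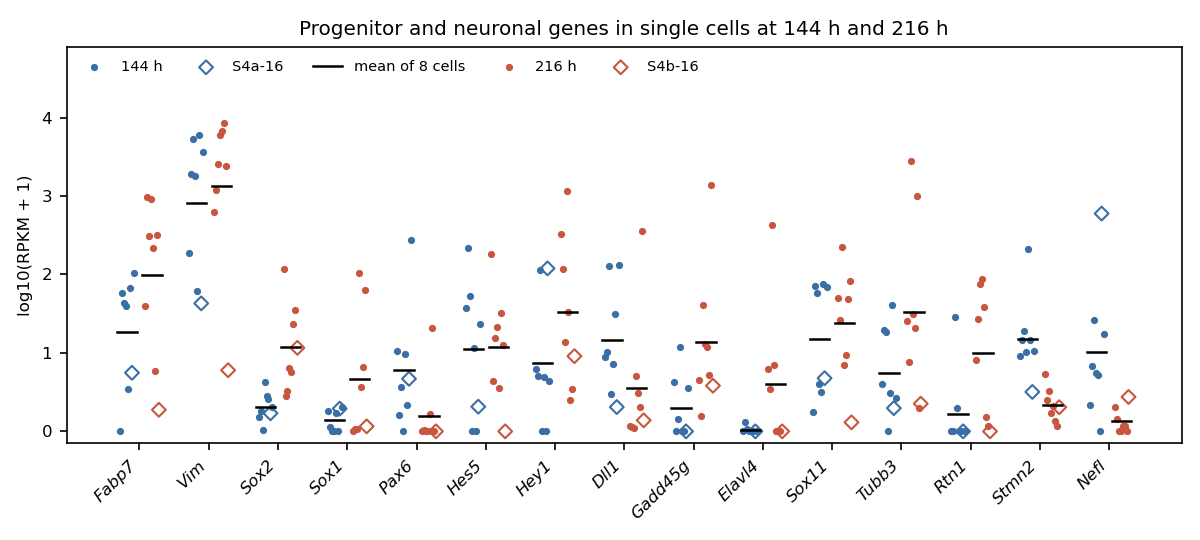
Level of progenitor and neuronal genes in each single cell, as log10(RPKM + 1). Blue points are cells of 144 h, red points cells of 216 h, open diamonds the cells S4a-16 and S4b-16, and black bars the mean of 8 cells. *Fabp7*, *Sox2* and *Gadd45g* had higher means at 216 h and *Stmn2* and *Nefl* lower ones. *Tubb3* was highest in S4b-04, at 3.44, and in S4b-12, at 3.01.

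Over all genes tested, 1050 (13.6%) were higher by at least 0.5 at 216 h and 1014 (13.1%) were lower. Without S4b-16 these were 1154 (14.9%) and 1095 (14.1%), and without both cells numbered 16 they were 1200 (15.5%) and 1164 (15%). The median difference of all genes was 0.0035, so that a list of genes lay high or low against a centre near 0. All 8 cells of 216 h were above all 8 of 144 h in 43 genes (0.555%) and below them in 27 (0.348%), and without S4b-16 in 74 (0.955%) and 53 (0.684%).

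The same step was sampled in SFEB populations, collected in parallel as whole cultures, and in adherent cultures, each with 1 library at a time point. In the populations, 622 of the 1043 genes found there that were higher in the cells (59.6%) were also higher at 216 h, where 48% of all genes were. Of the 1001 genes lower in the cells, 622 (62.1%) were also lower, where 52% of all genes were. The adherent cultures grew as a monolayer and, per the study's methods, were also replated on the same kind of coat at day 6. In them the shares were 50.9% and 55.5%, against 46.6% and 53.4% of all genes. Across genes, which are not independent, the difference in cells correlated with that in the populations at r 0.19 and with that in the adherent cultures at 0.0069. Here and below, fewer cells of a type and less RNA per cell cannot be told apart in the populations.

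Of 23 transcription factor genes of neural progenitors, 17 were tested. *Sox2*, *Id4* and *Sox1* (3 genes) were higher by at least 0.5 at 216 h, 3 (*Sox3*, *Tcf7l1* and *Pax6*) were lower, and 11 were within 0.5, where 13.6% and 13.1% of all genes were higher and lower. Without S4b-16 5 were higher, since *Zfp521* (0.51) and *Sall2* (0.60) then passed 0.5. The median difference was 0.03, close to that of all genes, and ranged from -0.11 to 0.08 as each cell was left out in turn. Without S4a-10 and S4a-14 it was 0.19, and *Sox1*, at 0.47, was no longer among the higher genes. *Sox2*, which keeps cells in the progenitor state, was at 0.02, 0.29 and 0.63 at 144 h and at 0.45, 0.93 and 2.07 at 216 h, higher by 0.76. Its values overlapped only narrowly, yet in the populations *Sox2* stood at 102 FPKM at 144 h and 106 FPKM at 216 h. *Sox1*, the first marker of neuroectoderm, did not pass 0.31 in any 144 h cell, while S4b-06 had 2.02 and S4b-13 had 1.80. Its difference of 0.52 rested on these cells and came to 0.33 when S4b-06 was left out and to 0.36 when S4b-13 was. In the populations *Sox1* already stood at 33.7 FPKM at 144 h, and at 37.0 FPKM at 216 h. *Id4*, an inhibitor of proneural proteins, was at most 0.18 at 144 h and reached 2.09 in S4b-06 and 1.85 in S4b-12, higher by 0.63, or 0.42 without S4b-06 and 0.45 without S4b-12.

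The lower members had a different form. *Sox3* was at 0.00, 0.88 and 1.76 at 144 h and was no higher than 0.10 in any cell of 216 h, a difference of -0.84. *Pax6*, a factor of forebrain and spinal cord progenitors, was at 0.00, 0.62 and 2.43 at 144 h and above an RPKM of 0.5 in only 2 of 8 cells at 216 h, with a difference of -0.58 that was -0.35 without S4a-17. *Tcf7l1*, a repressor of Wnt targets, differed by -0.73. The populations differed in the same direction for these 3 genes, by -0.12, -0.13 and -0.20. Other progenitor genes that the study names did not reach 0.5 over all cells. *Nes*, the intermediate filament nestin and a member of the radial glia list, was at 0.55, 1.47 and 2.05 and at 0.07, 0.96 and 1.88. *Zfp521*, which drives the entry into the neural lineage, was above an RPKM of 0.5 in 0 cells of 144 h and in 4 of 216 h, with a difference of 0.45, or 0.22 without S4b-06, and *Zeb2* was so in 3 and in 1.

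The radial glia list had 25 tested genes with a median difference of 0.18, of which 2 (*Ckb* and *Fabp7*) were higher and 1 (*Aldoc*) lower, smaller shares than the 13.6% and 13.1% of all genes. Without S4b-16 the median was 0.24, and 5 were higher, while without S4a-11 or S4a-16 the median was 0.09. *Ckb*, the brain form of creatine kinase, was at 1.63, 2.63 and 3.83 at 144 h and at 2.01, 3.74 and 4.02 at 216 h, higher by 0.79. *Vim*, the intermediate filament vimentin, was at 1.63, 3.27 and 3.78 and at 0.78, 3.39 and 3.94. Its difference was 0.21 over all cells and 0.55 without S4b-16, the cell with the value of 0.78. *Aldoc*, the aldolase of astrocytes, was between 1.10 and 1.43 in 5 cells of 144 h, at 0 in S4a-04, S4a-10 and S4a-14, and at most 0.11 in the 8 cells of 216 h. In the populations *Aldoc* was higher at 216 h, at 13.2 FPKM after 9.31 FPKM. For the whole list 20 of 25 genes were higher in the populations, with a median of 0.10, and 14 of 25 in the adherent cultures, with a median of 0.04.

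Among 17 tested Notch pathway genes, the effector *Hey1*, the E3 ligase gene *Dtx3* and the inhibitor *Numbl* were higher at 216 h, and the ligand *Dll1* and the glycosyltransferase *Mfng* were lower, with a median of 0.06. These 3 and 2 genes of 17 stood beside 13.6% and 13.1% of all genes. The median of the list ranged from -0.04 to 0.16 as each cell was left out, so its sign was not fixed. Without S4a-10 and S4a-14 no gene of the list was higher by 0.5, and *Dtx3* was under 0.5 (0.49) without S4b-12. *Hey1* was at 0.00, 0.70 and 2.08 at 144 h and at 0.41, 1.33 and 3.06 at 216 h, higher by 0.66, and by 0.44 without S4b-06. *Numbl* was higher by 0.56, or 0.30 without S4b-04, where it was at 2.64. *Dll1* was at 0.31, 0.98 and 2.12 at 144 h. At 216 h it was at 0.05, 0.22 and 2.56, with 7 of 8 cells at or under 0.71 and S4b-13 at the highest value of both times. Its difference was -0.62, or -0.48 without either S4a-08 or S4a-17, and it turned to 0.067 when log10 of the mean RPKM + 1 was compared. The populations stood at 17.1 FPKM at 144 h and 42.5 FPKM at 216 h. *Mfng* was at 0.00, 1.33 and 2.92 and at 0.00, 0.06 and 1.55, with a difference of -0.92, or -1.38 without S4a-10 and S4a-14. *Hes5*, the main target of Notch in progenitors, was at 0.00, 1.22 and 2.34 and at 0.00, 1.14 and 2.26, a difference of 0.03 that was -0.32 without S4a-10 and S4a-14 and between -0.14 and 0.21 as each cell was left out, so that its direction was not fixed. The receptor *Notch1* differed by 0.06. *Jag1* was above an RPKM of 0.5 in 1 cell of 144 h and 2 of 216 h, which was too few to be tested, and reached 1.79 in S4b-01.

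The upstream stretch of *Hes5* is shown because it is the Notch target described here for which the sequence tables hold an entry. It was taken from RefSeq on GRCm38.p6, plus strand, at chr4:154960673-154960922, and covers the 250 bases before the start site. Capitals mark TGGGAA, the core that the Notch partner Rbpj binds, on either strand. It occurs 2 times here, and at least once in 21.6% of 32851 such stretches of all promoters. Of the 17 tested Notch genes 12 had an entry, and *Hes5* and *Rbpj* itself held the core.
Hes5: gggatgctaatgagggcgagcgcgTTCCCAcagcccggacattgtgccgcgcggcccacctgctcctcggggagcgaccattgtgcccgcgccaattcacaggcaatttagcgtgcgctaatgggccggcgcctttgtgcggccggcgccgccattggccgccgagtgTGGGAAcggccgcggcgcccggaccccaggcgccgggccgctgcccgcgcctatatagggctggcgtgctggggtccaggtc

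The ligand *Shh* and the factor *Foxa2*, both markers of the ventral midline (floor plate), were higher at 216 h. *Shh* was at most 0.01 in the 8 cells of 144 h. It was above an RPKM of 0.5 in 5 cells of 216 h, at 1.51 in S4b-01, 1.07 in S4b-02, 0.87 in S4b-06, 0.72 in S4b-07 and 0.20 in S4b-04. The difference of 0.55 in *Shh* was 0.41 without S4b-01 and 0.47 without S4b-02. *Foxa2* was at 0.00, 0.01 and 0.74 at 144 h and at 0.00, 0.93 and 2.56 at 216 h, higher by 0.85, with its 4 highest values in S4b-06, S4b-02, S4b-07 and S4b-01. These were also the 4 highest *Shh* cells. *Shh* is not among the genes of the population table used here, and *Foxa2* stood at 14.1 FPKM and 18.2 FPKM there. In the adherent cultures both were lower at 216 h, *Shh* at 4.28 FPKM after 11.9 FPKM and *Foxa2* at 8.17 FPKM after 13.6 FPKM. The other 7 tested Hedgehog genes were within 0.5 over all cells, with a median of -0.02 for the list. Of these, *Gli3* was just inside at -0.50 and passed 0.5 without S4b-16, at -0.55, and *Boc*, at 0.34, passed it without S4a-10 and S4a-14, at 0.72. Of the endoderm list, to which *Foxa2* was also assigned, only *Foxa1* was tested besides, at 0.66 or lower in all cells.

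The neuronal lists differed between cells and populations. In the populations, all 33 tested genes of the neuronal cytoskeleton and axon and all 8 tested synaptic genes were higher at 216 h, with medians of 0.44 and 0.47, and 16 of 17 proneural genes with a median of 0.31. In the adherent cultures the cytoskeletal and synaptic medians were 0.39 and 0.35, with all 33 and all 8 genes higher, and the proneural median was 0.11, with 12 of 17 higher. In the single cells the medians were -0.10, -0.13 and 0.07. Of the 33 cytoskeletal genes 4 were higher by at least 0.5, 5 were lower and 24 were within 0.5, shares near those of all genes (13.6% and 13.1%), so that these counts set the list apart from other genes in neither direction. The genes are described one by one below.

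The 4 higher genes were *Marcks*, *Rtn1*, *Tubb3* and *Dpysl3*. *Marcks*, an actin regulator of the growth cone, was at 0.00, 0.01 and 1.83 at 144 h and at 0.00, 1.31 and 2.17 at 216 h. All 7 late cells other than S4b-16 had at least 1.03, and the difference was 0.85, or 1.03 without S4b-16. *Rtn1*, a reticulon of neuroendocrine cells and neurons, was above an RPKM of 0.5 in 2 cells of 144 h and in 6 of 216 h, with a difference of 0.78.

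The 5 lower genes were *Nefl*, *Stmn2*, *Tubb2b*, *Kif5a* and *Gng3*. *Stmn2*, a microtubule regulator of the axon, was at 0.50, 1.10 and 2.33 at 144 h and at 0.06, 0.32 and 0.73 at 216 h, lower by 0.84 as a mean. At 144 h 6 of the 8 cells lay between 0.95 and 1.27. In the populations *Stmn2* went the other way, with 76.4 FPKM at 144 h and 230 FPKM at 216 h. *Nefl*, the light neurofilament, was at 0.00, 0.79 and 2.78 at 144 h, with S4a-16 highest, and at 0.00, 0.07 and 0.44 at 216 h, against 118 FPKM and 175 FPKM in the populations. *Kif5a*, a motor of axonal transport, was above an RPKM of 0.5 in 5 cells of 144 h and in 0 of 216 h. Of the 8 tested synaptic genes none was higher. *Rab3a* and *Camk2b* were lower by at least 0.5 at 216 h (*Rab3a* by less, at -0.49, without S4a-02), where 13.1% of all genes were, and *Camk2b* was at 0.00 in all 7 cells of 216 h other than S4b-16. The 21 synaptic genes in the table had a mean level of at most 0.27 in 7 cells of 144 h and of at most 0.19 in all cells of 216 h. Only S4a-08 had a mean of 1.11, with 20 of the 21 genes above an RPKM of 0.5. This was also the cell with the most genes above 0 (10016) and the fewest above an RPKM of 0.5 (4914). The part of detection in its synaptic values was not tested. Without S4a-08 the synaptic median was 0.02, and without S4b-16 that of the cytoskeletal list was 0.01, so that neither sign was fixed. Without S4a-10 and S4a-14, 8 cytoskeletal genes were lower, a count with no share of all genes beside it.

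**Figure D2:**
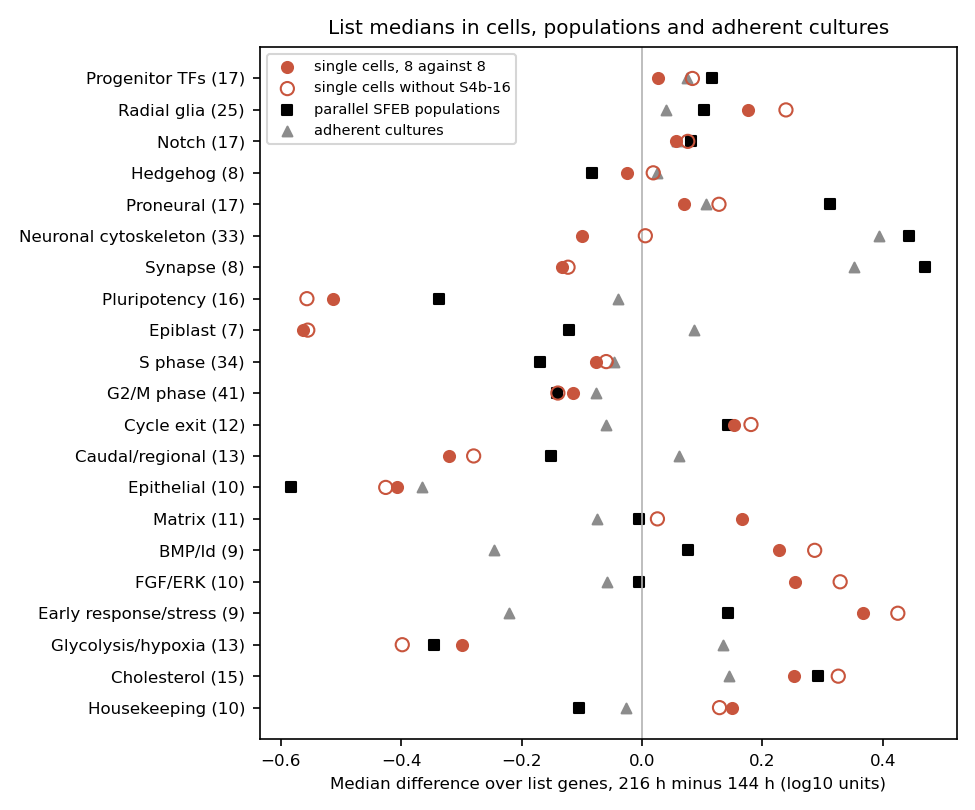
Median difference of each gene list, 216 h minus 144 h, in log10 units, with the number of tested genes in parentheses. Filled red circles are the single cells, open red circles the single cells without S4b-16, black squares the parallel SFEB populations and grey triangles the adherent cultures, each of the latter with 1 library per time. The neuronal cytoskeleton and synapse medians were 0.44 and 0.47 in the populations but -0.10 and -0.13 in the cells, whereas the pluripotency and epithelial medians were below 0 in both.

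Of 17 proneural and early neuronal genes, *Gadd45g*, *Sox12* and *Elavl4* were higher by at least 0.5 and none was lower, where 13.6% and 13.1% of all genes were. The median of 0.07 was 0.34 without S4a-10 and S4a-14, of which S4a-14 had the highest proneural level of its time. *Gadd45g*, a growth arrest gene that marks cells leaving the cycle, was at 0.00, 0.08 and 1.08 at 144 h and at 0.20, 0.90 and 3.15 at 216 h, higher by 0.84, or by 0.55 without S4b-13. *Sox12* was at 0.00, 0.12 and 1.33 and at 0.23, 0.98 and 1.76, higher by 0.70. *Elavl4*, a neuronal RNA binding protein, was at most 0.13 at 144 h and was at 2.63 in S4b-04. Its difference of 0.58 was 0.29 without that cell. All 3 genes were also higher in the populations, by 0.31, 0.22 and 0.35.

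Of 16 tested pluripotency genes, 8 were lower by at least 0.5 at 216 h and none was higher, where 13.1% and 13.6% of all genes were lower and higher. The other 8 were within 0.5, 2 genes of the list had a difference above 0, and the median was -0.51 in the cells and -0.34 in the populations, where all 16 were lower. In the adherent cultures 6 of 16 were higher, among them *Pou5f1* (0.14) and *Utf1* (0.08), with a median of -0.04. *Sall4* was at 0.64, 1.39 and 2.26 at 144 h. At 216 h its 7 cells other than S4b-16 were at 0.32 or lower, all under the lowest 144 h cell, and S4b-16 was at 2.19. *Zfp42* was at 1.18, 1.56 and 2.75 and at 0.20, 0.74 and 1.29, with a difference of -0.94. *Pou5f1* and *Utf1*, factors of the ES cell state, differed by -0.84 and -0.73. *Utf1* reached 3.94 in S4a-11 and 3.46 in S4a-16, and its difference was -0.47 without S4a-11. *Dppa5a* was at 0.99, 1.50 and 2.18 and at 0.00, 0.66 and 2.65, where S4b-16 held the 2.65, with a difference of -0.74 that turned to 0.081 when log10 of the mean RPKM + 1 was compared. Without both cells numbered 16 the median of the list was -0.42. Of 7 tested genes of the epiblast, *Sox3*, *Dnmt3b*, *Otx2* and *Tdgf1* were lower and none was higher, beside the same shares of all genes (13.1% and 13.6%). The median was -0.56, while 5 of 7 were higher in the adherent cultures (median 0.09). *Tdgf1* was at -0.48 without S4a-02, and *Otx2* at -0.48 without both cells numbered 16. *Dnmt3b*, a DNA methyltransferase of that stage, was at 0.06, 1.03 and 2.09 and at 0.05, 0.11 and 0.74.

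Epithelial genes had a median of -0.41 in the cells and -0.58 in the populations, where all 10 tested were lower. In the cells 2 of 10 (*Epcam* and *Krt19*) were lower by at least 0.5, where 13.1% of all genes were, and no difference was above 0. Without S4a-10 and S4a-14, 6 were lower, but no share of all genes is given for that repeat. Over all cells the calls of *Epcam* and *Krt19* were lost when S4a-11 was left out, with *Epcam* at -0.47 and *Krt19* at -0.44. *Krt19* was also under 0.5 in size in 3 other repeats without 1 cell. *Krt19* was at 0.00 in all 8 cells of 216 h and above an RPKM of 0.5 in 4 of 144 h. *Epcam*, an adhesion protein of epithelia and ES cells, was at 0.13, 0.80 and 2.07 and at 0.05, 0.22 and 0.66.

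The list of midbrain, hindbrain and spinal cord factors had 13 tested members, 5 lower by at least 0.5 (*Hoxb2*, *Irx5*, *Hoxb1*, *Msx2* and *Hoxa2*) and none higher, where 13.1% and 13.6% of all genes were lower and higher, with a median of -0.32. The list had medians of -0.15 in the populations and 0.06 in the adherent cultures, where 5 and 8 of 13 were higher. *Hoxb2* was at 0.27, 1.32 and 2.43 at 144 h, above an RPKM of 0.5 in all 8 cells. At 216 h it was at 0.00 in 7 cells and at 0.95 in S4b-02, a difference of -1.31. *Hoxb1* was at 0.00, 1.49 and 2.80 and at 0.00, 0.24 and 2.24, and stood at 8.70 FPKM and 0.996 FPKM in the populations. *Msx2*, a factor of the dorsal neural tube, was at 0.00 in all cells of 216 h. Of 20 forebrain genes only *Otx2* was tested, at 0.33, 1.06 and 2.84 at 144 h and at 0.00, 0.13 and 2.23 at 216 h, where S4b-13 held the 2.23 and every other cell was at 0.42 or lower.

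*Crabp1* and *Cyp26b1*, both of retinoic acid metabolism and members of no list, were among the 10 most negative differences. *Crabp1*, which binds retinoic acid in the cytoplasm, was at 1.51, 2.02 and 2.75 at 144 h and at 0.00, 0.31 and 0.86 at 216 h. Its groups did not overlap, its difference was -1.71, and the populations stood at 637 FPKM and 159 FPKM. *Cyp26b1*, an enzyme that degrades retinoic acid, was at 0.23, 1.50 and 2.66 at 144 h and at 0.00 in all 8 cells of 216 h, but its population levels were 18.1 FPKM and 29.3 FPKM.

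Cell cycle genes were present in both groups. Of 34 tested S phase genes 2 were higher and 6 lower (median -0.08), and of 41 tested G2/M genes 4 were higher and 8 lower (median -0.12), where 13.6% and 13.1% of all genes were. The medians ranged from -0.20 to -0.03 and from -0.21 to -0.05 as each cell was left out. Without S4b-16, 3 S phase genes were higher and 4 lower, beside 14.9% and 14.1% of all genes. Without S4a-10 and S4a-14, the cells with the highest G2/M levels at 144 h, 8 G2/M genes were higher and 5 lower, and the median was 0.02. The shares of all genes above are not those of this repeat. In the populations 33 of 34 and 39 of 41 were lower, with medians of -0.17 and -0.14. *Birc5*, the chromosomal passenger survivin, was at 0.00, 0.24 and 1.17 at 144 h and at 0.30, 1.51 and 2.60 at 216 h, higher by 1.21. The spindle genes *Racgap1*, *Mapre1* and *Ndc80* were higher as well, by 0.97, 0.89 and 0.87. *Cenpa*, the histone of the centromere, was at 1.32, 2.29 and 2.58 and at 0.05, 1.22 and 1.98, with a difference of -0.95, and the mitotic cyclin *Ccnb1* differed by -0.80. *Mapre1*, a microtubule end binding protein that the study took further, was at 0.06, 0.33 and 0.90 and at 0.44, 1.05 and 1.92, against 42.7 FPKM and 49.6 FPKM in the populations. *Cdca7* and *Mcm5* of the S phase list differed by -1.10 and -0.80, and *Cdc45* was higher by 0.94. In the populations *Birc5* and *Cdc45* went the other way, with differences of -0.18 and -0.22, and *Racgap1* differed by -0.01.

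Cells differed in their cycle lists within each time. The mean level of the G2/M genes was 0.58, 0.78 and 1.54 at 144 h, highest in S4a-14 and S4a-10 (1.30). At 216 h it was 0.47, 0.69 and 1.35, with S4b-02 at 1.35, S4b-13 at 1.34 and S4b-01 at 1.03. The S phase list was highest in S4a-04 (1.50) and S4a-08 (1.45) at 144 h and in S4b-12 (1.63) at 216 h. S4b-04, the cell with the highest proneural level, had the lowest S phase level of its time (0.68).

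Of 13 tested glycolysis and hypoxia genes, 5 were lower by at least 0.5 at 216 h, 8 were within 0.5 and none was higher, where 13.1% and 13.6% of all genes were lower and higher. Differences were below 0 in 12 of 13, with a median of -0.30. In the populations all 13 were lower, with a median of -0.35, and in the adherent cultures 10 of 13 were higher. *Slc2a1*, the glucose transporter Glut1, was at 1.40, 2.16 and 2.95 at 144 h and at 0.11, 0.95 and 1.90 at 216 h, a difference of -1.05, with 236 FPKM and 72.7 FPKM in the populations. *Slc2a3*, the transporter Glut3, was at 0.59, 1.35 and 2.39 and at 0.05, 0.16 and 2.00. Only S4b-16 held the 2.00, and the other 7 cells of 216 h were all under the lowest 144 h cell. *Slc16a3*, a lactate exporter, *Pgam1*, phosphoglycerate mutase, and *Ldha*, lactate dehydrogenase, differed by -0.87, -0.72 and -0.61.

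Of the 5 lower genes 4 had an entry in the sequence tables, and their upstream stretches of 250 bases are shown because they are members that differed together. All 4 held ACGTG, the core of the hypoxia response element bound by the HIF factors. At least 1 copy stands in 16.6% of the 32851 stretches. Of the 11 tested genes of the list with an entry, 6 held it. Capitals mark the core on either strand. CACGTG reads as the core on both strands and was counted for each, and it is also the motif bound by Myc and other factors. The windows were taken from RefSeq on GRCm38.p6, all on the plus strand, *Slc2a1* at chr4:119108495-119108744, *Ldha* at chr7:46845554-46845803 (the first of 2 start sites), *Slc16a3* at chr11:120948817-120949066 and *Pgam1* at chr19:41911621-41911870. The core began 36 bases before the start site in *Slc2a1*, 27 and 14 bases before it in *Slc16a3* and 114 bases before it in *Pgam1*.
Slc2a1: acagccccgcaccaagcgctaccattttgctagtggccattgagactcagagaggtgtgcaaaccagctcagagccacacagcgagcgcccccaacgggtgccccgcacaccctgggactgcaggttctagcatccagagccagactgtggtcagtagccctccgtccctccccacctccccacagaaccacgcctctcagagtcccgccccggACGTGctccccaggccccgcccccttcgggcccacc
Ldha: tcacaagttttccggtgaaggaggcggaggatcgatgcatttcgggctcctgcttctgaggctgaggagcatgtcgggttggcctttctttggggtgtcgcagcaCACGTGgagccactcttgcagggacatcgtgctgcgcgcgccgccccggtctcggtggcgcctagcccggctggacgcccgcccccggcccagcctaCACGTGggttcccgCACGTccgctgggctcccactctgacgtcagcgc
Slc16a3: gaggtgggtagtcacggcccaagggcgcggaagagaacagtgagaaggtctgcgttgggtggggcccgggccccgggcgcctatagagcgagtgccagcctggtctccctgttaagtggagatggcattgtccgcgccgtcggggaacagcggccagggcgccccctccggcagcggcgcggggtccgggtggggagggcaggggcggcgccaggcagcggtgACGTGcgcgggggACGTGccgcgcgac
Pgam1: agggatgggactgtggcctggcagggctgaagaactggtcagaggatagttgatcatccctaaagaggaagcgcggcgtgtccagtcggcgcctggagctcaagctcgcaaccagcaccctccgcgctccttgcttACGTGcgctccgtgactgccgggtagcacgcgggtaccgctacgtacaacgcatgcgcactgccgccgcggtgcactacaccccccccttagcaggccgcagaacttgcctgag

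Early response and stress genes were higher at 216 h in 3 of 9 tested (*Egr1*, *Fos* and *Ddit3*), and none was lower, where 13.6% and 13.1% of all genes were. The median was 0.37, between 0.22 and 0.46 as each cell was left out, and 0.10 when medians over cells were compared. *Fos* was at 0 in 7 cells of 144 h and barely above 0 in S4a-08, and at 0.17, 1.18 and 3.17 at 216 h. *Ddit3*, a gene of the unfolded protein response, was so too, and stood at 0.25, 0.87 and 2.75 at 216 h. *Egr1*, like *Fos* an immediate early gene, was at 0.00, 0.09 and 0.95 and at 0.65, 1.99 and 2.55. The populations stood at 0.793 FPKM and 23.2 FPKM for *Fos* and at 5.83 FPKM and 54.9 FPKM for *Egr1*. For *Ddit3* they stood at 7.69 FPKM and 9.52 FPKM, a difference of only 0.08. The adherent cultures went the other way for *Fos* and *Egr1*, with differences of -0.82 and -0.80, while *Ddit3* differed by 0.14 there.

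**Figure D3:**
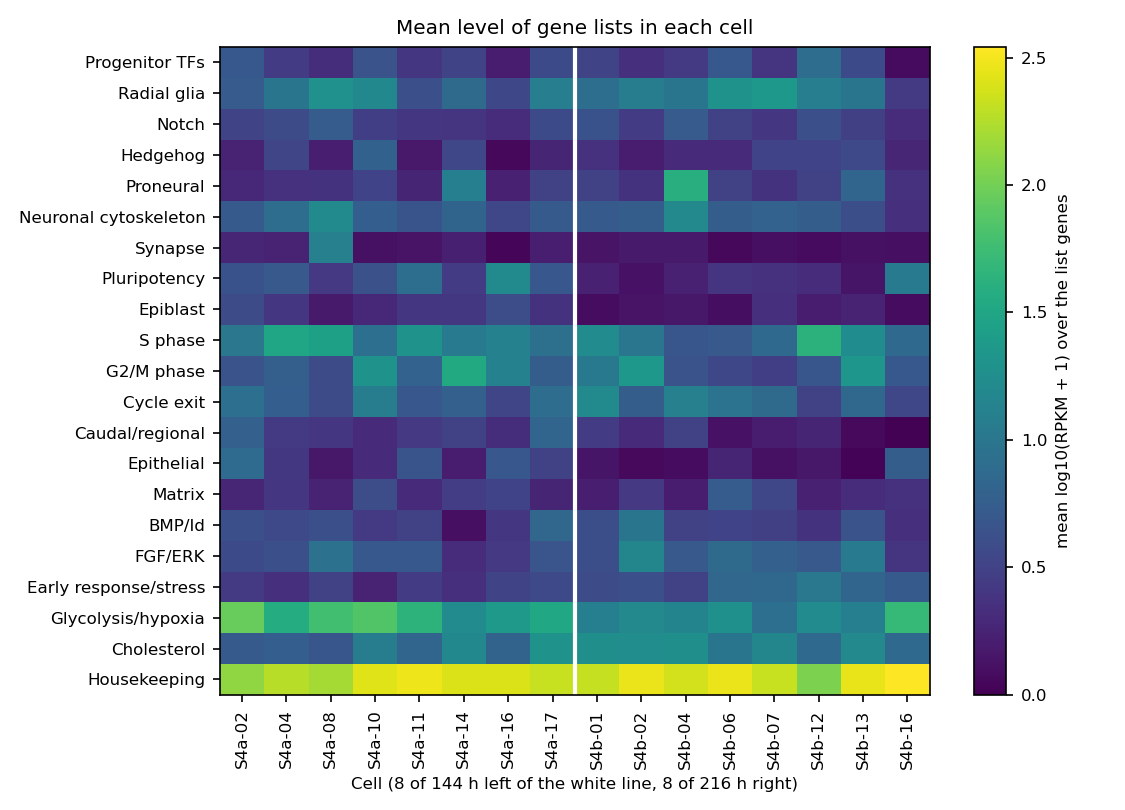
Mean log10(RPKM + 1) over the genes of each list (rows) in each of the 16 cells (columns), with 144 h left and 216 h right of the white line. S4a-16 and S4b-16 had the highest pluripotency levels of their times, 1.21 and 1.04, S4a-08 had a synapse level of 1.11, and S4a-14 and S4b-04 had the highest proneural levels, 1.10 and 1.60.

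The spread between cells was as large at 216 h as at 144 h. The median SD over all genes was 0.60 at both times, and 0.59 at 216 h without S4b-16. A gene was counted as on-off when at least 2 cells of a time were at 0 and at least 2 were at 1 or above. This held for 17.3% of the genes at 144 h and for 6.05% at 216 h (3.74% without S4b-16). With off set at an RPKM of at most 0.5, the shares were 25.6% and 26.1%, and 18.1% without S4b-16. Over 8 cells each, the number was thus larger at 144 h with exact zeros and not with this wider setting.

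The zeros at 144 h fell in the same cells again and again. Of the 1338 on-off genes, 446 (33.3%) were at 0 in S4a-10 and S4a-14 and in no other cell. In these genes the median level of the other 6 cells had a median of 1.12 over genes. The next most frequent set, S4a-02, S4a-11 and S4a-17, accounted for 101 genes (7.55%). S4a-10 was at 0 in 57.2% and S4a-14 in 58.0% of the on-off genes, S4a-08 in 5.08%. At 216 h the most frequent set was S4b-01 and S4b-04, with 81 of 469 genes (17.3%). The median difference of the 446 genes in the populations was -0.01.

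Some progenitor genes had their zeros in this pair and others did not. *Hes5* was at 0.00 in S4a-10 and S4a-14 and between 0.31 and 2.34 in the other 6 cells. *Sox3* and the Notch effector *Hey1* were at 0.00 in the same pair of cells, as were the neuronal genes *Tagln3* and *Rab3a*. In contrast, *Hmga2* was highest in S4a-10, at 1.84, and *Zeb2* in S4a-14, at 1.52, though *Zeb2* was at 0.00 in 5 cells, S4a-10 among them. Of the 17 progenitor factors, 6 (*Sox3*, *Sox9*, *Hes5*, *Zeb2*, *Hmga2* and *Pou3f3*) were on-off at 144 h and 3 (*Sox9*, *Id4* and *Pou3f3*) at 216 h, where 17.3% and 6.05% of all genes were. By SD the most variable progenitor factors at 144 h were *Meis1* (0.91), *Sox21* (0.89), *Hes5* (0.87) and *Hmga2* (0.84). *Meis1*, a partner of Hox proteins, reached 2.39 in S4a-10 and was at 0.00 in S4a-16. *Sox21* was above 2 in S4a-10 and S4a-17 and at 0.04 or lower in S4a-04 and S4a-08. At 216 h without S4b-16 the most variable were *Id4* (0.89), *Sox1* (0.85), *Zfp521* (0.74) and *Meis1* (0.65). All 4 were highest in S4b-06, with *Zfp521* at 2.07 and *Meis1* at 1.92 there.

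Among radial glia genes, *Ckb* (0.91), *Vim* (0.88), *Phgdh* (0.87) and *Ptn* (0.80) varied most at 144 h. *Ckb* and *Vim* were lowest in the same 3 cells, S4a-16, S4a-11 and S4a-02. At 216 h without S4b-16 the SD of *Vim* was 0.42, and those of *Ptn*, *Phgdh* and *Slc1a3* were 1.00, 0.93 and 0.89. *Slc1a3*, the glutamate transporter of radial glia, was at 2.20 in S4b-06 and 1.72 in S4b-07 and under 0.5 in the other 6. *Ptn*, the secreted factor pleiotrophin, reached 3.02 in S4b-12. Within the Notch list *Mfng* varied most at 144 h (1.12), and *Hey1* at 216 h (1.00 without S4b-16), from 0.41 in S4b-12 to 3.06 in S4b-06.

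The proneural and neuronal genes varied through a few cells. At 144 h the mean proneural level was 1.10 in S4a-14 and at most 0.51 in the other 7 cells. At 216 h it was 1.60 in S4b-04, 0.83 in S4b-13 and at most 0.50 in the other 6. These cells were high in different genes. *Dll1* and *Gadd45g* were highest in S4b-13, at 2.56 and 3.15. *Tubb3*, *Elavl4*, *Tagln3* and *Nhlh2* were highest in S4b-04, at 3.44, 2.63, 3.02 and 2.00. *Hes6* was near 3.9 in both, at 3.83 in S4b-04 and 3.94 in S4b-13, and at 1.98 or lower in the other 6, and *Btg2*, an antiproliferative gene, was at 2.66 and 2.85. *Tubb3* was also high in S4b-12 (3.01), where the S phase level was highest and *Elavl4* was at 0.00. *Rtn1* was lowest, after S4b-16, in S4b-13 and S4b-12. At 144 h the most variable cytoskeletal gene was *Tagln3* (SD 1.13), at 3.04 in S4a-02. Over the 7 cells of 216 h without S4b-16 the SDs of *Tubb3* and *Hes6* were 1.13 and 1.12, both above the 0.59 of the median gene.

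**Figure D4:**
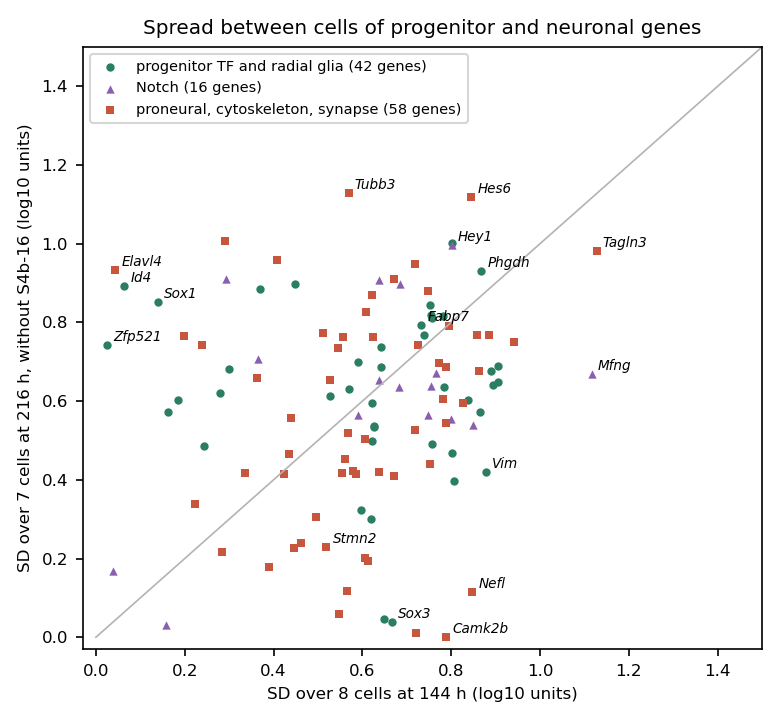
SD between cells of the tested progenitor, Notch and neuronal genes, at 144 h (8 cells, horizontal) and at 216 h without S4b-16 (7 cells, vertical), in log10 units, with a line of equal SD. *Elavl4*, *Id4*, *Sox1* and *Zfp521* lie far above the line, *Vim*, *Nefl* and *Stmn2* below it, and *Tubb3* and *Hes6* have the largest SDs at 216 h.

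Apart from *Egr1*, the genes with the largest differences were members of no list. The 10 most positive were *Egr1*, *Vtn*, *Jam3*, *Nt5m*, *Csnk1e*, *Hax1*, *Zfp821*, *Sec61a2*, *Rbm33* and *Edc4*. *Vtn*, the matrix protein vitronectin, was at 0.00, 0.48 and 0.99 at 144 h and at 0.04, 2.38 and 3.69 at 216 h, higher by 1.67. It was above 3 in S4b-01, S4b-02, S4b-06 and S4b-07, the same 4 cells that were highest in *Foxa2* and *Shh*. *Jam3*, a junctional adhesion molecule, was at 0.00, 0.30 and 0.60 and at 0.13, 1.98 and 3.39. *Vtn* was higher by 0.53 in the populations, *Jam3* by 0.13. *Nt5m*, *Csnk1e*, *Zfp821*, *Rbm33* and *Edc4* had no overlap between the groups, and their differences of 1.34 to 1.51 in the cells stood beside -0.06 to 0.30 in the populations.

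Besides *Crabp1*, *Cyp26b1* and the Wnt antagonist *Sfrp2* (-1.40), the 10 most negative were *Pabpc4*, *Pard6g*, *Efhd2*, *Ppp1r1a*, *Slc37a4*, *Pddc1* and *Got1*. *Pabpc4*, a cytoplasmic poly(A) binding protein, was at 1.15, 1.66 and 2.34 and at 0.01, 0.11 and 0.41, and *Got1*, the cytosolic aspartate aminotransferase, at 1.16, 1.56 and 2.84 and at 0.05, 0.44 and 1.10. In the populations they differed by -0.28 and -0.22. *Pard6g*, a polarity protein, was at 0.39, 1.43 and 2.81 and at most 0.11 at 216 h, yet at 12.4 FPKM and 14.2 FPKM in the populations, and *Efhd2* at 15.4 FPKM and 15.2 FPKM. *Fyn*, the kinase gene that the study deleted in other samples, was at 0.00, 0.97 and 2.42 at 144 h and at 0.00, 0.00 and 1.37 at 216 h. Its difference of -0.86 in the cells stood against one of 0.30 in the populations. Like *Hes5*, it was at 0.00 in S4a-10 and S4a-14.

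**Figure D5:**
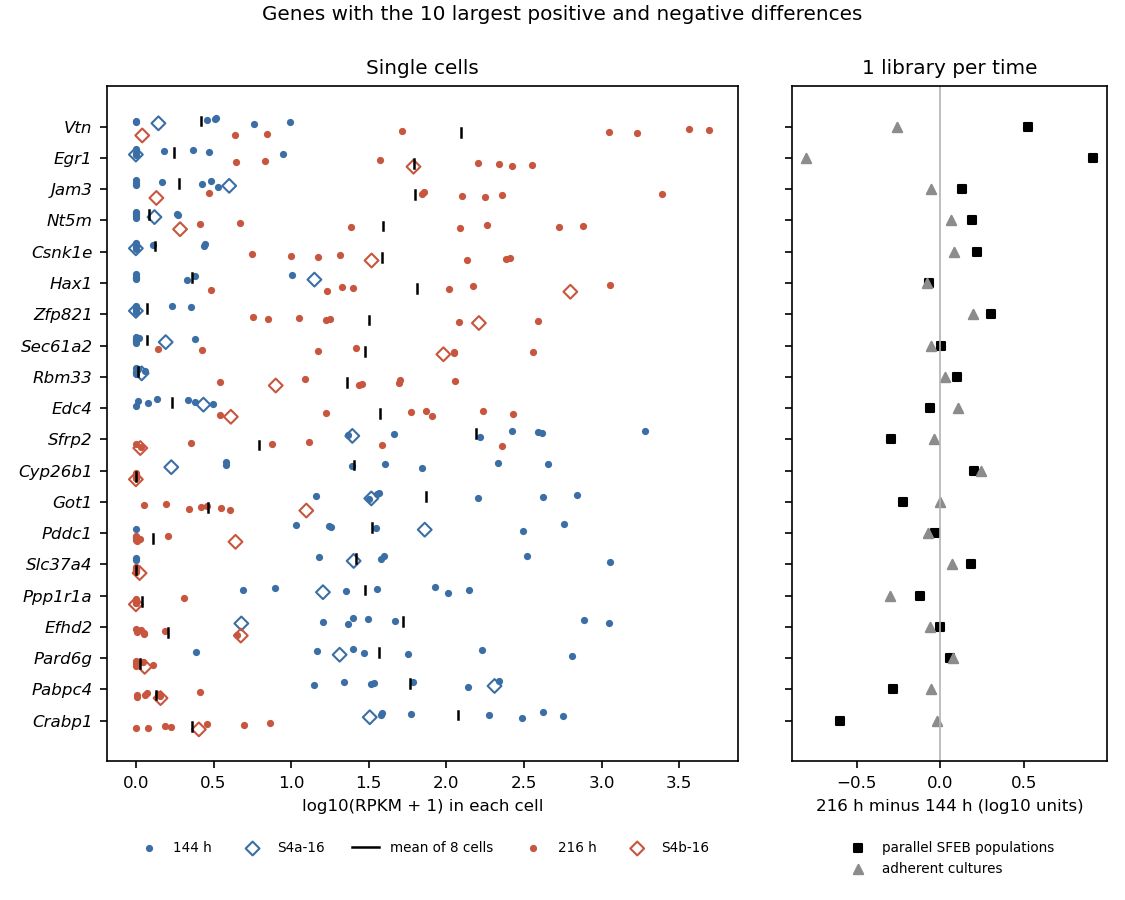
Left, level of the 10 genes with the largest positive and the 10 with the largest negative difference in each cell, as log10(RPKM + 1), with 144 h in blue, 216 h in red, S4a-16 and S4b-16 as open diamonds and means of 8 cells as black bars. Right, the difference of the same genes in the parallel populations (squares) and the adherent cultures (triangles), 216 h minus 144 h in log10 units. *Crabp1*, *Vtn* and *Egr1* differ in the same direction in the populations, while *Pard6g*, *Efhd2*, *Sec61a2* and *Hax1* lie near 0 there.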

How the data were processed

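Single cells were lysed and their cDNA was amplified by PCR, without molecular identifiers, and sequenced in single-end reads. Per the labels and the study's methods, the authors mapped reads to mm9 and estimated expression per gene. The submitters' processing notes name TopHat2 2.0.8b and Cufflinks 2.1.1, while the study's methods give earlier versions of TopHat and Cufflinks. The deposited single-cell values are log10(RPKM + 1) after the authors' quantile normalization over 64 cells, with genes kept above an RPKM of 0.5 in at least 8 cells. The deposited population values are FPKM after the authors' ComBat batch correction, in which 17 values at 144 h and 18 at 216 h were below 0 and were set to 0 here. The deposited adherent culture values are FPKM without that correction. No file used gives read counts, so the depth of each cell is not known beyond the minimum per library that the study states, and genes above 0 stand in for it. Quantile normalization sets all cells to 1 distribution and can hide differences in total RNA.

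Groups were taken from the collection time in the labels. Numbers shared by cells of both times only name picked cells. Genes above an RPKM of 0.5 in at least 4 of 16 cells were compared by the difference of mean log10 values, with a size of 0.5, and population values by the difference of log10(FPKM + 1). With each time taken as 1 sample no p-value was computed. The scripts (Python 3.11.15, numpy 2.4.6, pandas 2.3.3) were tested on simulated data. Genes were named by a rule: the 3 markers, late genes that the study names, the 10 largest differences each way, up to 4 of each of 28 lists by difference, and up to 4 of the progenitor, Notch and neuronal lists by SD. Predicted gene models were not described. Members that complete a count (such as *Tubb2b*, *Kif5a*, *Gng3*, *Dpysl3*, *Ldha*, *Hoxa2* and *Ndc80*) and single values quoted for a cell, such as *Nhlh2* or *Boc*, were added after their values were seen. The members, lists and motifs were chosen with earlier results of these data known. Alternatives covered the scale, the gene filter, the size and leaving out cells. The earlier single cells entered only the likeness to other time points, and the parallel populations and adherent cultures stand beside the cells. The E14 and Fyn knockout samples were not used here. Some items are not reported here.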

Additional observations from a re-analysis of the deposited data

Results flagged for a closer look

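The mean level of each of 27 gene lists, the number of genes above 0 and the levels of *Fabp7*, *Sox11* and *Tubb3* were examined at both times for a cell far from the other 7 of its time point, by the gap to its nearest neighbour over the whole range (Dixon's test at the 95% level). Of 62 groups of 8 cells, 12 passed, where chance passes about 1 in 20 groups if values are independent and normally distributed. Lists share cells, and the shortest lists hold mostly genes near 0, so an excess over chance cannot be read from this. Several of the 12 are of S4b-16, which the study itself called an outlier. All that passed were list levels, given as mean log10(RPKM + 1) over the genes of a list.

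At 144 h, S4a-14 stood above the rest in proneural genes, at 1.10 with the next cell at 0.51. S4a-08 did so in synaptic genes, at 1.11 with the next at 0.27. S4a-16 had a forebrain level of 0.47, with the next at 0.24, in a list of which only *Otx2* passed the gene filter.

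At 216 h, S4b-04 had a proneural level of 1.60, with the next cell at 0.83. S4b-16 was far from the other 7 in 5 lists. It was lowest in radial glia genes, at 0.43 with the next at 0.92. It was highest in pluripotency genes (1.04, next 0.39), in epithelial genes (0.75, next 0.26), in mesoderm and vessel markers (0.40, next 0.07) and in glycolysis genes (1.70, next 1.28). S4b-07 was highest in fibroblast markers (0.37, next 0.16) and S4b-02 in BMP and Id genes (0.99, next 0.65). S4b-12 was lowest in genes used by nearly every cell, at 2.04 with the next at 2.31.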

How the results depend on the processing

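No paired analysis was possible because no test was made and the cell numbers only name picked cells. Of 594 comparisons of 27 list medians with their alternatives, 584 moved by less than the spread between cells. Of 3168 comparisons of 144 named genes 3093 did. For each named gene, 16 of the alternatives left out a single cell. Such a step cannot shift a mean by as much as that spread, so these comparisons could not count as moved. The stability of the named genes can therefore not be read from this count. Calls at a size of 0.5 could still be lost without a single cell, as given gene by gene. The counts of higher and lower genes were 1002 to 1154 and 978 to 1116 as each cell was left out. They were 1813 and 1803 with log10 of the mean RPKM + 1, 1955 and 1767 with a pseudocount of 0.1, 146 and 143 with one of 10, 1988 and 1903 at a size of 0.3, and 89 and 115 at a size of 1. With genes above 0 in at least 12 of the 16 cells, 661 were higher. Without S4b-16, 74 and 53 genes did not overlap and 290 were on-off at 216 h. With on set at 0.5, on-off genes numbered 2372 at 144 h and 1014 at 216 h, and with off below an RPKM of 0.5 there were 2026 at 216 h. With a pseudocount of 0.1 the medians were -1.14 for epiblast, -0.64 for epithelial and 0.65 for BMP and Id genes, and with one of 10 they were -0.14 for epiblast and -0.11 for epithelial genes. With the mean RPKM they were -0.28 for crest, 0.95 for mesoderm and 0.98 for stress genes. With the median over cells they were -0.13 for matrix and 0.10 for stress genes. On the mean RPKM scale *Dll1* and *Dppa5a* turned to 0.067 and 0.081, where S4b-13 and S4b-16 held the highest values. The causes of the other moves were not tested. The depth of each cell is not known beyond a stated minimum, and a 0 in a cell cannot be read as absence.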

Other observations

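Counts in the signalling and metabolic lists stood beside 13.6% of all genes higher and 13.1% lower by at least 0.5, and nothing is read from those near these shares. Of 9 tested BMP and Id genes, *Smad5*, *Id3* and *Id4* were higher, by 0.71, 0.69 and 0.63, while *Id2* and *Id1* differed by -1.37 and -0.59, with a median of 0.23. *Id3* was at 0.46 without S4b-02 and at 0.47 without S4a-14, and without S4b-16 1 gene of the list was lower. Among 10 tested FGF and ERK feedback genes, the inhibitors *Spry1* and *Il17rd* were higher, by 0.71 and 0.61, and the inhibitor *Spred1* differed by -0.87, with a median of 0.25. Without S4b-06 *Il17rd* was at 0.42, and without S4b-02 *Spry1* was just under 0.5. Of 15 tested genes of cholesterol synthesis, *Fdps*, *Idi1* and *Cyp51* were higher, by 0.88, 0.77 and 0.53, and their regulator *Srebf2* differed by -0.87. The cholesterol median was 0.25 in the cells and 0.29 in the populations, where 14 of 15 genes were higher. Without 1 cell at a time *Cyp51* was under 0.5 in 10 of 16 repeats.

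Of 11 tested genes of laminin, fibronectin and their receptors none was higher, and *Lama1* and *Lama5* differed by -0.77 and -0.54, with a median of 0.17. Without S4b-16 the median was 0.03 and 1 gene (*Dag1*, 0.52) was higher, and *Lama5* was at -0.32 without S4a-10. Of 12 tested G1 cyclin and cell cycle exit genes, *Gadd45g* was higher and *Gadd45a* differed by -0.66 (median 0.15). Markers of other cell types were few. Of the crest list *Snai1* was higher by 0.56, or 0.28 without S4b-13, and 2 other genes were within 0.5. Of 3 tested fibroblast markers *Dcn* was higher by 0.56 and *Col1a2* differed by -0.57, but *Dcn* was at 0.28 without S4b-07 and *Col1a2* at -0.34 without S4a-10. The 2 tested glial markers and *Pecam1*, the one tested vessel marker (0.28, or 0.06 without S4b-16, the one cell above 0.5), were within 0.5. Of 10 genes used by nearly every cell, *Hprt* alone differed by at least 0.5, at -0.75, with a median of 0.15. No mitochondrially encoded gene is in the cell table.

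As a description over cells that share their processing but differ in genes above 0, the proneural and cytoskeletal list levels correlated at r 0.15 over the 8 cells of 144 h and at 0.72 over those of 216 h (0.78 over 7 without S4b-16), the latter with S4b-04 highest in both. The pluripotency and radial glia levels correlated at -0.74 over the 8 cells of 144 h, at -0.66 over those of 216 h and at 0.74 over 7 without S4b-16. The S phase and G2/M levels correlated at -0.48 at 144 h and at 0.34 at 216 h.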
